A study of Arabidopsis thaliana with 43 samples.

Results

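The SPL genes targeted by miR156 are the SQUAMOSA PROMOTER BINDING PROTEIN-LIKE transcription factor genes of Arabidopsis thaliana whose messenger RNA carries a site for the microRNA miR156. They were taken by locus as SPL2 (AT5G43270), SPL3 (AT2G33810), SPL4 (AT1G53160), SPL5 (AT3G15270), SPL6 (AT1G69170), SPL9 (AT2G42200), SPL10 (AT1G27370), SPL11 (AT1G27360), SPL13A (AT5G50570) and SPL15 (AT3G57920), which are 10 of the 32507 loci measured. SPL13B (AT5G50670), a near-identical copy of SPL13A, is not among them and is shown beside SPL13A because reads of the pair cannot be fully told apart. Transcripts were sequenced from wild type embryos of the Col-0 accession at 8 stages, with 3 libraries of 50 embryos each made by Smart-seq2, a method in which messenger RNA is reverse transcribed over its whole length and the cDNA amplified. All groups share this genotype and accession, and no embryo was treated. The stages were preglobular (8-cell and 16-cell embryos), globular, early heart, late heart, early torpedo, late torpedo, bent cotyledon and mature green. For the bent cotyledon stage the libraries made from 5 ng of RNA were used, and 19 further bent cotyledon libraries with less RNA or other kits are described at the end. The libraries are pools of whole embryos, so fewer cells of a type and less RNA per cell cannot be told apart.

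SPL proteins bind DNA through the SBP domain, a zinc-binding fold found in plants only. miR156 and its close relative miR157 lower their output by cutting the messenger RNA and by blocking its translation. The pair is known as the timer of plant age: miR156 is abundant in young plants and declines later, which lets SPL proteins promote adult leaves and flowering. In young embryos, miR156 is known to hold down SPL10 and SPL11, and embryos that lack microRNAs switch on maturation genes too early.

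The site is shown first because it defines the set. Mature miRNA sequences are those of RefSeq (assembly TAIR10.1), with the seed (bases 2 to 8 from the 5′ end) in capitals. miR156a to miR156f share 1 sequence on the 5p arm, miR156g differs from it at the first base, and miR157a to miR157c are shifted by 1 base, which moves their seed.
miR156a-5p: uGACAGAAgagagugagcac
miR156g: cGACAGAAgagagugagcac
miR156h: uGACAGAAgaaagagagcac
miR157a-5p: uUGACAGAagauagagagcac
miR157d: uGACAGAAgauagagagcac
The sites in the messenger RNAs follow, 5′ to 3′, with each base that departs from the perfect complement of miR156a-5p in capitals. Positions are counted from 1 at the 5′ end of that complement.
perfect complement: gtgctcactctcttctgtca
SPL2, SPL6, SPL9, SPL10, SPL11, SPL13A, SPL13B and SPL15: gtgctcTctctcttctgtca
SPL3: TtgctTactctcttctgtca
SPL4: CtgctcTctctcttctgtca
SPL5: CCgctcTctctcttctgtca
The first of these sites differs from the complement by A7T alone. It lies in the coding sequence of all its genes, apart from SPL10 isoform 6, where the annotation places it in the 3′ UTR. SPL3 carries G1T and C6T, SPL4 carries G1C and A7T, and SPL5 carries G1C, T2C and A7T. The sites of these 3 genes lie in the 3′ UTR. No difference lies opposite the miRNA seed in any of the genes.

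In TAIR10.1 the SPL10 site lies at chr1:9505541-9505560 on the minus strand and the SPL11 site at chr1:9503618-9503637 on the plus strand, in neighbouring genes. The SPL2 site lies at chr5:17360758-17360777 on the minus strand. The SPL13A site is at chr5:20582738-20582757 and the SPL13B site at chr5:20616080-20616099, both on the minus strand. The SPL5 site is at chr3:5140598-5140617 on the minus strand, the SPL3 site at chr2:14305878-14305897 and the SPL4 site at chr1:19807090-19807109, these last on the plus strand. Among 36470 loci with a RefSeq transcript, 13 held a stretch within 3 mismatches of the complement: the 10 genes, SPL13B, AT3G28690 and AT3G47170. The SPL genes outside the set (SPL1, SPL7, SPL8, SPL12, SPL14 and SPL16) had at least 6 mismatches everywhere.

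The 24 stage libraries held 8432892 to 35807605 estimated read counts, with the lowest totals, 8432892 to 11552331, at bent cotyledon. Summed levels of 6 embryo markers ranged from 83.8 to 493 TPM over all libraries (read counts divided by transcript length and scaled to a fixed library total); the embryo marker STM was at 0 at preglobular. Summed levels of 9 endosperm markers, which stand for the tissue that surrounds the embryo, were 3.11 to 7.70 TPM before mature green and 47.7 to 54.8 TPM at mature green. EPR1, a proline-rich protein gene of the endosperm, accounted for a mean of 45.5 TPM of this, and AGL80 for 5.02 TPM, while MINI3 and PHE1 were at 0 there. Summed levels of 8 seed coat markers were 1.70 to 5.99 TPM at preglobular, 6.83 to 11.7 TPM at early heart, 8.42 to 9.58 TPM at late heart and 1.75 to 4.08 TPM at mature green, with MYB5 at 0 at each of these stages. The part of these tissues in the results was not tested. Mature green replicates are numbered 1 to 3 in the titles and each called the first in the descriptions, so the spread between them may be technical.

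Most of these genes were expressed at low levels (the heat map of TPM by stage). The order of the genes is given in TPM, which divides by transcript length. At preglobular, SPL10 had a mean of 4.05 ± 0.941 TPM (SD, n = 3) and SPL2 3.70 ± 0.831 TPM, and their libraries overlapped. SPL11 followed at 1.102 ± 0.229 TPM, below all SPL2 libraries, and the other 7 genes were at or below 0.486 TPM. From globular to early torpedo SPL2 stood alone at the top of the 10 genes, with 4.49 ± 0.407 TPM at late heart. There SPL13A (1.97 TPM), SPL10 (1.86 TPM) and SPL11 (1.504 TPM) overlapped one another below it. At late torpedo SPL2 (1.83 TPM) overlapped SPL10 (1.42 TPM), and at bent cotyledon SPL10, SPL13A and SPL2 overlapped at 1.53, 1.42 and 1.42 TPM. This order leaves out SPL13B. The sum of SPL13A and SPL13B was below all SPL2 libraries from preglobular to early heart. It overlapped SPL2 at late heart (4.51, 4.14 and 3.065 TPM) and early torpedo. It was above all SPL2 libraries at late torpedo (2.35, 2.625 and 4.57 TPM) and bent cotyledon (3.02, 2.86 and 3.36 TPM). The same held at mature green, where the sum (2.43, 1.605 and 2.86 TPM) overlapped SPL5 (1.89, 1.62 and 2.88 TPM). At mature green SPL5 came first of the 10 genes at 2.13 ± 0.664 TPM and overlapped SPL13A at 1.34 ± 0.331 TPM. The SPL5 level may hold reads of AT3G15260, a gene on the opposite strand described below, and this was not tested. SPL10 at preglobular had the highest standing of any of the 10 genes at any stage, at percentile 47.9 of the tested genes, while SPL2 at late heart was at percentile 37.5.

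The summed level of the 10 genes lay between 6.34 and 11.8 TPM as stage means. The sum was 10.2 ± 2.16 TPM at preglobular, 6.34 ± 1.71 TPM at globular, 11.8 ± 1.45 TPM at late heart, 6.59 ± 0.866 TPM at late torpedo and 7.81 ± 0.770 TPM at mature green (SD, n = 3). SPL13B, which carries the same site as SPL13A, is left out of this sum. Its means at these stages were 0.188, 0.734, 1.94, 2.27 and 0.956 TPM. On the TMM-scaled count scale described below, the sum of the 10 genes was 11.1 ± 2.06 CPM at globular and 28.6 ± 3.87 CPM at mature green, its highest stage mean. The 6 SPL genes without a site summed to 17.9 ± 2.77 TPM at preglobular and 44.5 ± 4.03 TPM at early heart, and ended at 25.2 ± 2.81 TPM at mature green. Their lowest library, 15.9 TPM, was above the highest library of the 10 genes, 13.2 TPM.

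**Figure D1:**
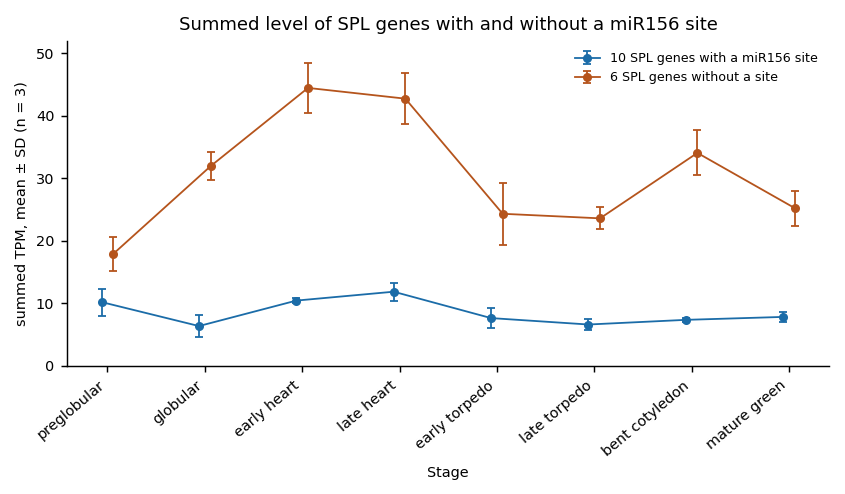
Summed TPM (mean ± SD, n = 3) of the 10 SPL genes with a miR156 site (blue) and of the 6 SPL genes without one (orange) at each stage. SPL13B, which also carries a site, is in neither set. The blue line stays between 6.34 and 11.8 TPM, and the orange line runs from 17.9 to 44.5 TPM.

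Counts were tested with edgeR's quasi-likelihood test and a gene was called where its p, adjusted by Benjamini and Hochberg over the 21014 genes tested, was under 0.05. SPL15 did not pass the filter on low counts, with 61.1 counts in all 24 libraries and at most 8.23 in 1. Over the 8 stages together, 7 of the 9 tested members were called, beside 91.1% of all tested genes. SPL3 (adjusted p = 0.871) and SPL11 (adjusted p = 0.0563) were not. SPL11 was called with DESeq2 (adjusted p = 0.00651). SPL4, which is among the 7, passed the filter through its highest libraries relative to depth. These were the bent cotyledon ones (5, 5 and 6 counts) and late torpedo replicate 3 (11 counts). Its call over the 8 stages is thus not independent of the filter. Levels within a gene are given below as CPM, the count relative to library size, scaled by TMM, a normalization that sets the bulk of genes equal between libraries.

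**Figure D2:**
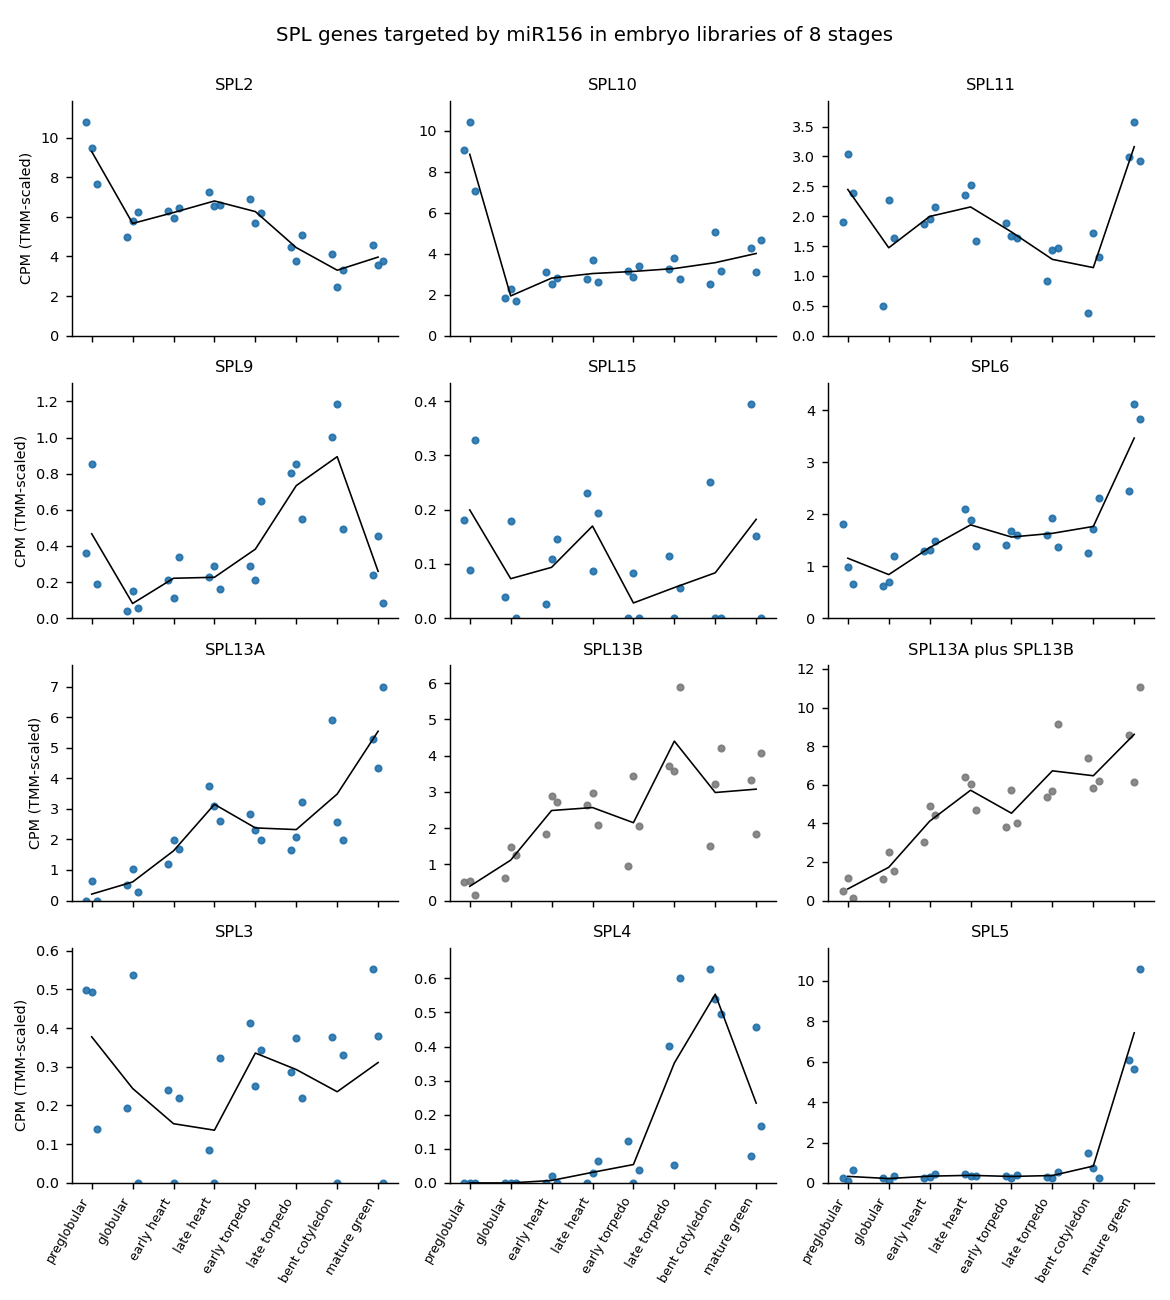
Level of each gene in each of the 24 libraries (points, TMM-scaled CPM, own scale per panel) with the stage mean (line); SPL13B and the sum of SPL13A and SPL13B are in grey. SPL10 drops after preglobular from 8.86 to 1.94 CPM, SPL13A climbs from 0.209 to 5.54 CPM, and SPL5 stands at 7.43 CPM at mature green.

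SPL10 fell sharply after preglobular. With SPL2 and SPL11 it forms a group of close paralogs known for shaping leaves and for acting in the young embryo. The preglobular libraries held 9.065, 10.4 and 7.07 CPM of SPL10, the globular ones 1.86, 2.27 and 1.69 CPM, and no library of the later stages exceeded 5.06 CPM. The preglobular libraries thus lay above all others. SPL10 fell 4.53-fold from preglobular to globular (log2 fold change −2.18 ± 0.26 SE, edgeR adjusted p = 4.52e-06). It was still 2.91-fold lower at late heart than at preglobular (adjusted p = 2.38e-05) and 2.21-fold lower at mature green (adjusted p = 0.000339). These 3 calls held in each of the 24 fits that left out 1 library and in all 9 other settings. After globular the stage means lay between 2.81 and 4.01 CPM, and no step between neighbouring stages was called.

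SPL2 fell at the first step and again after late heart. Its libraries held 10.8, 9.46 and 7.63 CPM at preglobular and 4.96, 5.80 and 6.23 CPM at globular, with no overlap. The fall was 1.64-fold (log2 fold change −0.72 ± 0.19 SE, edgeR adjusted p = 0.00767). It was not called with limma on log2(TPM + 1) or log2(TPM + 0.1) (adjusted p = 0.334 and 0.402), where the median of all genes moved by 0.35 and 0.47. At late heart SPL2 held 7.24, 6.55 and 6.61 CPM and at mature green 4.58, 3.58 and 3.75 CPM. This was a 1.71-fold fall (log2 fold change −0.78, adjusted p = 0.00127). Across the series it was 2.34-fold lower at mature green than at preglobular (log2 fold change −1.23, adjusted p = 7.74e-06), and these last 2 calls held in every fit that left out 1 library. From preglobular to late heart the log2 fold change of −0.45 passed at an adjusted p of 0.0442, but was lost in 13 of 24 fits that left out 1 library, whichever late heart or early heart replicate or preglobular replicate 1 or 2 was dropped, and without globular replicate 2, early torpedo replicate 1 or 3, late torpedo replicate 1 or bent cotyledon replicate 3 (adjusted p up to 0.142); on both TPM scales the sign turned.

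SPL11 had 1 low library at globular and 1 at bent cotyledon. It held 1.904, 3.05 and 2.39 CPM at preglobular and 0.504, 2.27 and 1.64 CPM at globular, where the first library stood low and the groups overlapped (adjusted p = 0.234). The bent cotyledon libraries held 0.376, 1.72 and 1.32 CPM and the mature green ones 3.00, 3.58 and 2.92 CPM. SPL11 rose 2.72-fold across this step (log2 fold change 1.44 ± 0.46 SE, edgeR adjusted p = 0.0112), with all mature green libraries above all bent cotyledon ones. Without bent cotyledon replicate 1 the adjusted p was 0.0612, and the call was also lost on the log2(TPM + 1) scale (adjusted p = 0.201).

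SPL9 was low throughout and changed at both ends. SPL9, with SPL15, is known for slowing the pace at which leaves form and for promoting adult traits and flowering, in part by switching on miR172. It held 0.363, 0.852 and 0.187 CPM at preglobular and 0.0388, 0.1495 and 0.0547 CPM at globular, all lower. The fall was 5.16-fold (log2 fold change −2.37 ± 0.73 SE, edgeR adjusted p = 0.0223) and was lost without preglobular replicate 2 (log2 fold change −1.62, adjusted p = 0.159) and without globular replicate 1 or 3 (−2.06 and −2.20, adjusted p 0.0886 and 0.0685). Without globular replicate 2 it was larger (−3.21, adjusted p = 0.0235). Its highest stage means were 0.734 CPM at late torpedo and 0.894 CPM at bent cotyledon. At mature green the libraries held 0.237, 0.457 and 0.0833 CPM, below all bent cotyledon libraries (1.00, 1.18 and 0.495 CPM). This 3.32-fold fall (log2 fold change −1.73, adjusted p = 0.0445) lay at the threshold: it was lost in 14 of 24 fits that left out 1 library (adjusted p up to 0.164, without mature green replicate 3) and with DESeq2 (adjusted p = 0.0597). Without mature green replicate 2 it was −2.38 on the log2 scale (adjusted p = 0.027). The libraries concerned were preglobular replicate 1, globular replicate 3, early heart replicate 1, every late heart and late torpedo replicate, early torpedo replicate 1, bent cotyledon replicates 1 and 2 and mature green replicates 1 and 3.

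SPL15 had at least 1 count in 17 of 24 libraries and stage means between 0.0280 CPM at early torpedo and 0.1996 CPM at preglobular. It shares 93.7% of its 50-base windows with AT3G57910, a gene on the opposite strand that held 8.75 to 16.8 CPM by stage. Whether the libraries keep strand is not given in the sources used here, so reads of SPL15 and AT3G57910 cannot be told apart where they overlap.

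SPL13A rose from near 0 between preglobular and late heart. SPL13 proteins are known for delaying leaf formation after germination and for promoting adult leaf traits. The preglobular libraries held 0, 0.628 and 0 CPM, the globular ones 0.504, 1.05 and 0.273 CPM, and the early heart ones 1.20, 1.98 and 1.70 CPM. The late heart libraries held 3.74, 3.102 and 2.61 CPM, all above all earlier libraries. The difference between preglobular and late heart was 14.6-fold (log2 fold change 3.86 ± 0.75 SE, edgeR adjusted p = 0.000197), and that between preglobular and mature green 25.6-fold (log2 fold change 4.68, adjusted p = 1.2e-05). The preglobular mean rests on replicate 2, since replicates 1 and 3 had 0 counts. Against a floor of 3 counts over those 2 libraries, SPL13A was 45.6-fold higher at late heart and 80.2-fold higher at mature green. These folds are not lower bounds. The floor leaves out the split with SPL13B, which was assigned 11 and 3 counts in those libraries. Without preglobular replicate 1 or 3 the log2 fold changes were 3.24 and 3.25 to late heart and 4.09 and 4.09 to mature green. The step from preglobular to globular was called without replicate 2 (adjusted p = 0.000856). At mature green the libraries held 5.29, 4.34 and 6.998 CPM, which from late heart was not a called difference (log2 fold change 0.81, adjusted p = 0.24), though it was called in a fit of these 2 stages alone (0.84, adjusted p = 0.0215) and was below 0 on both TPM scales.

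The split between SPL13A and SPL13B is an estimate. Of the 50-base windows of SPL13A, 85.6% also occur in SPL13B on the same strand, and 100% of those of SPL13B occur in SPL13A. SPL13B held 0.498, 0.538 and 0.140 CPM at preglobular and 2.64, 2.96 and 2.095 CPM at late heart, and was 6.45-fold higher at late heart (adjusted p = 0.00022). The sum of the pair avoids the split. It held 0.498, 1.17 and 0.140 CPM at preglobular, 1.12, 2.51 and 1.53 CPM at globular, 3.05, 4.87 and 4.42 CPM at early heart and 6.38, 6.06 and 4.71 CPM at late heart. Tested as 1 gene, the sum rose at the first step (log2 fold change 1.52 ± 0.46 SE, edgeR adjusted p = 0.0192) and at the second (log2 fold change 1.24 ± 0.40 SE, adjusted p = 0.0353), while neither was called for SPL13A alone (adjusted p = 0.162 and 0.160). From preglobular to late heart the sum rose 9.38-fold (adjusted p = 4.36e-06). Preglobular and globular libraries of the sum overlapped.

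SPL6 was higher at the end of the series than at its start. In Arabidopsis SPL6 is known for a role in immunity. It held 1.81, 0.986 and 0.656 CPM at preglobular, 2.098, 1.896 and 1.39 CPM at late heart, 1.25, 1.72 and 2.31 CPM at bent cotyledon and 2.44, 4.11 and 3.83 CPM at mature green. The mature green libraries lay above all others. SPL6 rose 3.00-fold from preglobular to mature green (log2 fold change 1.58 ± 0.37 SE, edgeR adjusted p = 0.000562), a call that held in all 24 fits that left out 1 library. The rises from bent cotyledon (log2 fold change 0.96, adjusted p = 0.0333) and from late heart (0.95, adjusted p = 0.0226) were smaller. The former was lost in 4 of 8 other settings and without bent cotyledon replicate 1 or 2 or mature green replicate 2 or 3 (adjusted p 0.129, 0.0794, 0.0935 and 0.0838), and the latter without late heart replicate 3 or mature green replicate 2 or 3 (0.0958, 0.0715 and 0.0602). On log2(TPM + 1) the difference from late heart was −0.17 (limma adjusted p = 0.302), while the median of all genes moved by −0.85 on that scale.

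SPL3, SPL4 and SPL5 encode small proteins made up of little more than the SBP domain, and are known for promoting floral identity through LFY, FUL and AP1. SPL5 was low until mature green. It held 0.0896 to 0.656 CPM in the 18 libraries from preglobular to late torpedo, 1.505, 0.753 and 0.248 CPM at bent cotyledon and 6.07, 5.63 and 10.6 CPM at mature green. No library of another stage reached a mature green one. SPL5 was 9.19-fold higher at mature green than at bent cotyledon (log2 fold change 3.20 ± 0.60 SE, edgeR adjusted p = 0.000116) and 4.28 ± 0.60 higher on the log2 scale than at late heart (adjusted p = 2.06e-06). Both calls held in every fit that left out 1 library and in all 8 other settings. Without bent cotyledon replicate 1 the rise from bent cotyledon was 15.1-fold (log2 fold change 3.92).

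The gene on the opposite strand of SPL5, AT3G15260, moved with it. The gene AT3G15260 spans all 1959 bases of SPL5, and 23.5% of the 50-base windows of the SPL5 transcript are also in its transcript. AT3G15260 held 43.5 ± 2.33 CPM at preglobular, 89.1 ± 5.27 CPM at bent cotyledon and 684 ± 316 CPM at mature green, and rose 7.67-fold across the last step (log2 fold change 2.94 ± 0.21 SE, edgeR adjusted p = 2.05e-10). Library by library, SPL5 held between 0.174% and 1.64% of the CPM of AT3G15260, a ratio of counts that is not corrected for length and is compared only between libraries. At mature green these shares were 1.27%, 1.07% and 1.01%, and at bent cotyledon 1.64%, 0.815% and 0.298%, which overlap. The library with the most SPL5, mature green replicate 3, also had the most AT3G15260 (1047 CPM). Since the strand of the libraries is not known here, the part of AT3G15260 in the SPL5 counts was not tested.

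**Figure D3:**
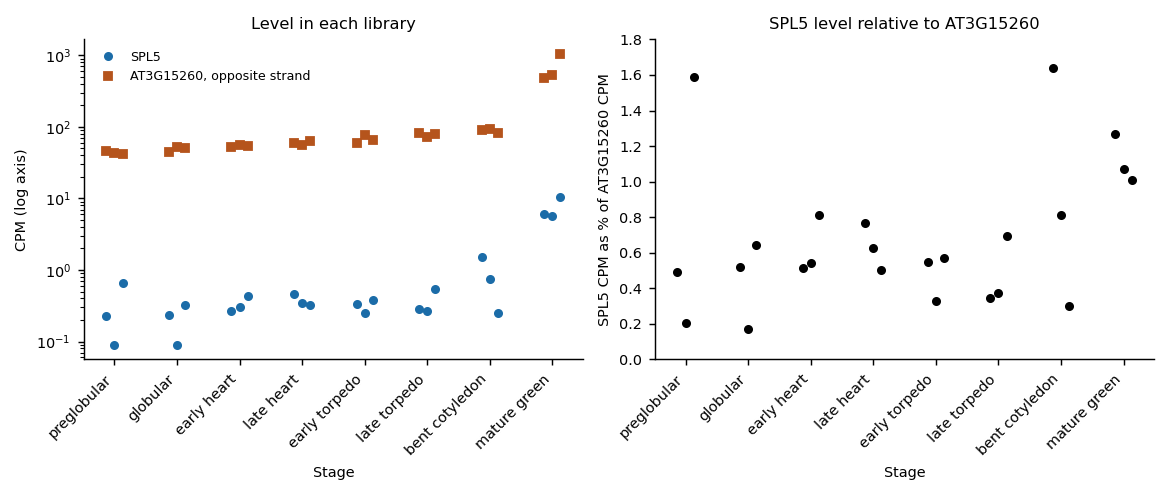
Left: CPM of SPL5 (circles) and of AT3G15260 on the opposite strand (squares) in each library, log axis. Right: SPL5 as a percent of AT3G15260 in each library; mature green sits at 1.01% to 1.27%, within the range of 0.174% to 1.64% over all libraries.

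SPL4 was detected late. All 6 libraries at preglobular and globular were at 0 counts, and 14 of 24 libraries had at least 1. It held 0.400, 0.0534 and 0.601 CPM at late torpedo, 0.627, 0.538 and 0.495 CPM at bent cotyledon and 0.0789, 0.457 and 0.167 CPM at mature green, so its highest stage mean was 0.554 CPM at bent cotyledon. Against a floor of 3 counts over the preglobular libraries, the mature green mean of SPL4, which rests on 9 counts, was at least 5.13-fold higher (edgeR adjusted p = 0.00586). This bound does not cover the spread at mature green. Without mature green replicate 2 the bound was 2.69-fold (adjusted p = 0.0381). The call was lost on log2(TPM + 1) (adjusted p = 0.161). From late heart to mature green it passed at an adjusted p of 0.0377 (log2 fold change 2.77 ± 1.12 SE), and was lost without late heart replicate 1 or 2 or mature green replicate 2 (log2 fold change 2.23, 2.73 and 1.88; adjusted p 0.118, 0.0886 and 0.249) and in 5 of 7 other settings, DESeq2 among them (0.0591). Without late heart replicate 3 it was 3.60 (adjusted p = 0.0342).

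SPL3 held 0 to 0.552 CPM and 140 counts over all libraries, with a zero in 1 library of each of 5 stages. Its stage means ran from 0.136 CPM at late heart to 0.377 CPM at preglobular, and no comparison between stages was called. A long non-coding RNA on the opposite strand, AT2G33815, shares 92.2% of the SPL3 windows and held 0.0625 to 0.339 CPM by stage. Reads of the pair cannot be told apart without strand.

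By step, 3 of the 9 tested genes (SPL2, SPL9 and SPL10) fell from preglobular to globular, beside 23.6% of all tested genes called, 11.4% higher and 12.2% lower. In the edgeR model of all 24 libraries and with DESeq2 no member rose there, and on log2(TPM + 0.1) with limma 1 did. With edgeR, SPL13A was called higher without preglobular replicate 2 (adjusted p = 0.000856) and when summed with SPL13B (adjusted p = 0.0192). The median log2 fold change of the members was −0.63 (−0.68 without SPL4, which had no count at either stage), beside 0.00 for all genes.

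At the 5 steps from globular to bent cotyledon no member was called in the edgeR model of all 24 libraries or with DESeq2. From globular to early heart the background was 17.6% of genes, 8.57% higher and 9.03% lower; 2 members, SPL10 and SPL13A, were higher at an unadjusted edgeR p under 0.05, and without preglobular replicate 2 SPL13A was called (adjusted p = 0.0407). On log2(TPM + 1) with limma SPL6 and SPL13A were called higher at this step, while the median of all genes moved by 0.24. From early to late heart 2.45% of genes were called, 1.22% higher and 1.23% lower, and 0 members had an unadjusted p under 0.05. In an edgeR fit of these 2 stages alone SPL13A was called higher (log2 fold change 0.94, adjusted p = 0.0397). Into early torpedo, 19% of genes were called, 13.3% higher and 5.76% lower, and again 0 members had such a p. At that step limma called SPL2 and SPL13A lower on log2(TPM + 1), where all genes shifted by −0.32. Between the torpedo stages 1.13% of genes were called, 0.666% higher and 0.466% lower, and SPL2 (lower) and SPL4 (higher) had an unadjusted p under 0.05. From late torpedo to bent cotyledon 33.3% were called, 13.7% higher and 19.7% lower, and SPL2 (lower) had such a p; it was called in 1 of the 24 fits that left out 1 library (adjusted p = 0.0456).

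From bent cotyledon to mature green SPL5, SPL6 and SPL11 rose and SPL9 fell, 4 of 9, beside 55.4% of all genes, 27.2% higher and 28.2% lower. The median log2 fold change was 0.40, beside 0.01 for all genes. On both TPM scales limma called 1 member higher and 2 lower at this step, where the median of all genes moved by −0.44 on log2(TPM + 1).

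The longer spans share their libraries with these steps and are not independent of them. From preglobular to late heart SPL13A rose and SPL2 and SPL10 fell, which is 3 of 9, beside 53.3% of all genes, 27.5% higher and 25.8% lower. The median log2 fold change of the 9 genes was −0.18 (−0.32 without SPL4, which had no more than 3 counts at either stage), beside 0.05 for all genes. From late heart to mature green SPL4, SPL5 and SPL6 rose and SPL2 fell, 4 of 9, beside 67% of all genes, 32.6% higher and 34.4% lower, with a median of 0.81 beside −0.02. On log2(TPM + 1), SPL5 alone was called higher over this span and SPL2 and SPL10 lower. From preglobular to mature green SPL4, SPL5, SPL6 and SPL13A rose and SPL2 and SPL10 fell, 6 of 9, beside 75.9% of all genes, 38.5% higher and 37.4% lower.

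**Figure D4:**
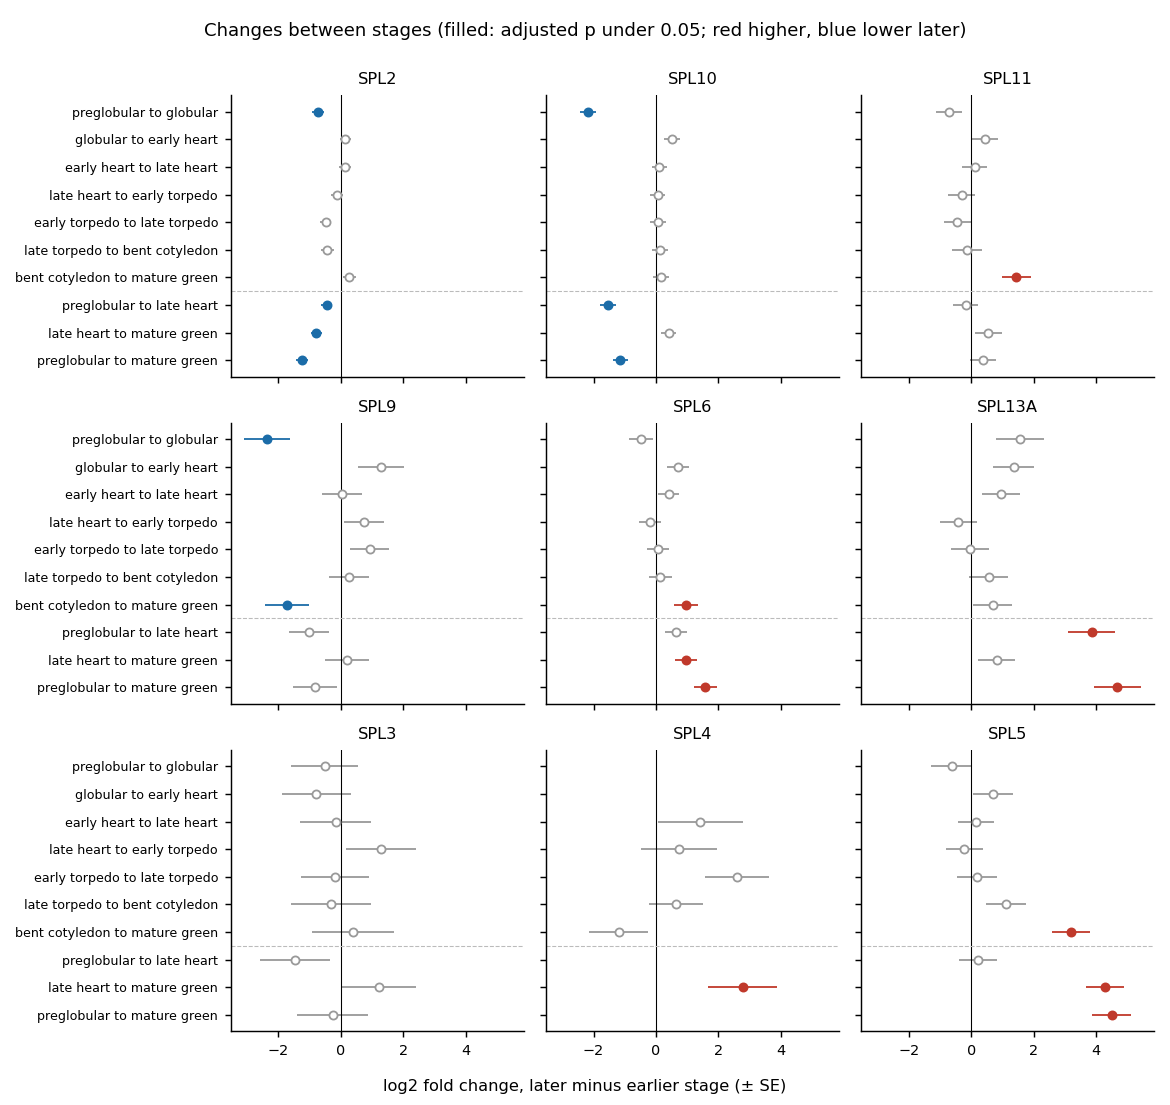
Log2 fold change (later minus earlier stage, ± SE from edgeR) of the 9 tested genes for 7 neighbouring steps (above the dashed line) and 3 longer spans (below it). Filled points passed an adjusted p of 0.05, red higher and blue lower; for SPL4, comparisons with a group at 0 counts are not drawn. Filled points lie at the first and last steps and the spans, and none at the 5 steps between.

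Isoforms differ in whether they keep the site only for SPL4. SPL4 isoform 1 holds it in its 3′ UTR, while isoforms 2 and 3 end without it. Of 52 estimated counts of SPL4 over all stages, 34 were assigned to isoform 1, or 65.4% (exact 95% confidence interval 50.9% to 78.0%, counting error only). The share was 15 of 19 counts at late torpedo, 12 of 16 at bent cotyledon and 2 of 9 at mature green (22.2%, interval 2.81% to 60%). At mature green all 6 counts of isoform 2 came from replicate 2, and without that library the share was 2 of 3 counts. The mature green interval overlaps those of late torpedo (54.4% to 93.9%) and bent cotyledon (47.6% to 92.7%). Amplified reads are not independent molecules, and these counts come from 3 libraries a stage. All isoforms of SPL2, SPL10, SPL11 and SPL13A hold the site. Isoform 2 took 72.2% of the SPL11 counts over all stages, and isoform 3 took 38.6% of the SPL2 counts at early heart and 76.2% at late torpedo (26.3% to 49.6% and 66.9% to 82.2% in single libraries). The authors' counting splits shared reads between isoforms by likelihood, so these shares are estimates.

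Of the 6 SPL genes without a site, 5 passed the filter (not SPL8), and all 5 were called over the 8 stages, beside 91.1% of all tested genes. From preglobular to mature green SPL1 (log2 fold change 1.53), SPL12 (1.42), SPL16 (1.08) and SPL14 (0.82) rose and SPL7, a regulator of copper supply, did not pass (0.24, edgeR adjusted p = 0.0994); 38.5% of all tested genes were higher over this span. On log2(TPM + 1) with limma, where the median of all genes moved by −0.26 over this span, 2 of the 5 were called higher. From preglobular to globular SPL12 rose 1.54-fold (adjusted p = 0.00182). SPL12 held 15.4 ± 1.82 CPM at preglobular and 23.7 ± 1.84 CPM at globular.

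The miR156 and miR157 precursor genes were not analysed here. Genes known to act on them were measured. FUS3 and AGL15, an embryo transcription factor pair that binds MIR156 genes, rose from preglobular to late heart (log2 fold change 0.84 and 0.68; edgeR adjusted p = 0.000135 and 0.00572). AGL18, a close relative of AGL15, fell over the same span (−2.33, adjusted p = 0.000174) and already from preglobular to globular (−1.31, adjusted p = 0.0327). CLF, a Polycomb methyltransferase that represses MIR156 genes, fell from late heart to mature green (−2.19, adjusted p = 7.09e-08). Of 11 such regulators, 4 rose and 1 fell from preglobular to late heart, beside 27.5% of all tested genes higher and 25.8% lower; the number higher was 2 with RLE size factors, without the filter and with DESeq2, and 9 on log2(TPM + 1). From late heart to mature green 4 rose and 2 fell, beside 32.6% of all tested genes higher and 34.4% lower, while on log2(TPM + 1), where all genes shifted by −0.85, 0 were higher and 7 lower.

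Of 6 genes for microRNA production and action, 2 rose from preglobular to late heart, beside 27.5% of all tested genes higher. DCL1, the enzyme that cuts miRNA precursors, rose by 0.77 on the log2 scale (edgeR adjusted p = 0.00681) and AGO1, the protein that holds miR156 on its targets, by 0.73 (adjusted p = 0.000332). The number higher was 5 on log2(TPM + 1). From late heart to mature green AGO1, SE, HYL1 and HEN1 fell and HST rose, the last not on log2(TPM + 1), where 0 of the 6 were higher. These 5 of 6 stand beside 67% of all tested genes called over that span. AGO1 fell by 0.97 and SE by 1.44 on the log2 scale (adjusted p = 7.93e-06 and 5.84e-07).

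Among known direct targets of SPL proteins, 3 of the 7 in the tables passed the filter. TRY, a repressor of leaf hairs that SPL9 is known to switch on, rose from globular to early heart (log2 fold change 4.41, edgeR adjusted p = 0.000101) and reached 12.1 TPM at early torpedo. LFY, the floral regulator, rose at the same step (adjusted p = 0.0142), from 0 counts at globular to a mean of 0.238 CPM, which is at least 6.16-fold against a floor of 3 counts over the globular libraries. SOC1 was called at no step or span with edgeR, though it was over the 8 stages (adjusted p = 0.0069), and AP1, FUL, AGL42 and TCL1 stayed at or below 0.326 TPM as stage means.

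The AP2-like genes targeted by miR172, which acts downstream of SPL9, were all called from late heart to mature green (6 of 6, beside 67% of all tested genes, 32.6% higher and 34.4% lower). AP2, TOE1, TOE2 and TOE3 fell and SMZ and SNZ rose, and across the settings run 3 to 4 were called lower and 2 higher. AP2 went from 46.8 TPM to 1.07 TPM (log2 fold change −4.20, edgeR adjusted p = 4.6e-11) and SMZ from 0.0194 to 6.71 TPM. At the first step TOE3 fell by 2.16 and TOE1 by 0.82 on the log2 scale (adjusted p = 0.000219 and 0.00884).

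For each tested gene, the gene outside the family with the most similar profile was found as the highest Pearson r of log2(CPM + 0.5) over the 24 libraries, among 6410 genes with a symbol and a mean of at least 5 CPM. The points share stages, and the values are a description. SPL5 was most like NCED9, an enzyme gene of abscisic acid synthesis (r = 0.98), which was at 0 CPM at preglobular and had a mean of 109 CPM at mature green. The SPL5 profile used here may hold reads of AT3G15260, and this was not tested. SPL13A was most like ALDH2C4 (r = 0.94; 0.195 CPM at preglobular, 82.2 CPM at mature green). SPL10 was most like ARF17, an auxin response factor gene that is itself the target of a microRNA, miR160 (r = 0.88; 11.1 CPM at preglobular, 3.58 CPM at globular). SPL4 was most like AIM1 (r = 0.89), SPL2 like TLP6 (r = 0.88), SPL6 like UGT76C1 (r = 0.86), SPL9 like WAT1 (r = 0.80) and SPL11 like ING2 (r = 0.76). The closest gene to SPL3, NPG1, reached only r = 0.55.

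The bent cotyledon libraries made with less RNA show how far such low levels can be measured. With Smart-seq2 and 5 ng, 10, 8 and 9 of the 10 genes had at least 1 count in the 3 replicates. With 1 ng these were 7, 8 and 8, with 0.5 ng 9, 5 and 8, and with 0.1 ng 4, 3 and 5. The summed level of the 10 genes was 7.65, 7.37 and 6.99 TPM at 5 ng and 5.02, 8.95 and 6.47 TPM at 0.1 ng and lay between 4.93 and 9.03 TPM at the inputs between; no library at 0.1 ng fell within the range at 5 ng. SPL2 held 33, 23 and 40 counts at 5 ng and 0, 0 and 4 counts at 0.1 ng, where SPL10 held 30, 0 and 4. Depth differed at 0.1 ng, with 7210878, 7449617 and 987529 counts over all loci. The 4 SPL2 counts of replicate 3 were 4.05 CPM without TMM scaling, within the range at 5 ng (2.52 to 4.13 CPM). A library at 0 counts allows up to 3 counts at its depth.

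With the other kits there was 1 library per input, so there is no replicate check. With Ovation, 7, 7, 5, 8 and 4 genes were detected at 5, 1, 0.5, 0.1 and 0.05 ng, and the summed level was 0.616 to 2.45 TPM. The highest sum, at 0.1 ng, held 0.853 TPM of SPL13A and 1.175 TPM of SPL15. In the Ovation libraries the 6 SPL genes without a site were also lower, at 2.92 to 5.25 TPM summed. With Smart-seq2 at 5 ng these 6 genes summed to 30.1 to 37.1 TPM. With SMARTer, 9, 4, 2, 0 and 2 genes were detected at the same inputs, in libraries of 11530829, 3647995, 8217176, 7188257 and 2183654 counts over all loci. The SMARTer library of 0.1 ng, with all 10 genes at 0, was assigned 324 counts of SPL13B (26.3 TPM), beside 23 counts at 5 ng and 0 at 1, 0.5 and 0.05 ng. Since 100% of the SPL13B windows occur in SPL13A, whether SPL13A counts as detected with these kits rests on the estimated split.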

How the data were processed

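Messenger RNA was sequenced from embryos at 8 stages (24 libraries) and from bent cotyledon RNA at lower inputs or with 2 other kits (19 libraries), as paired reads of 50 bases per the labels. The submitters' processing notes name cutadapt 1.9.1, kallisto 0.43.1 and build TAIR10; the transcript set and strand setting are not given in the sources used here. The deposited estimated counts are the reads kallisto assigned to each of 54845 transcripts, not scaled to depth. The authors' TPM, in the same deposited tables, is relative to transcript length and to the library, with 1 total for all tables, so it falls for most genes where a few genes fill a library. The deposited transcript lengths, of another kind of unit, were used only to match transcripts by ID to RefSeq TAIR10.1 (51930 of the 52126 found had the same length), and all positions are from TAIR10.1.

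Counts and TPM were summed per locus, leaving out 96 spike-ins and 1064 other non-coding RNAs (0.699% to 7.18% of counts in the stage libraries). The sums, rounded, went into edgeR 4.0.16: filterByExpr left 21014 genes, TMM scaled the libraries, and 1 quasi-likelihood model of the 24 stage libraries gave 10 contrasts. SE is the log2 fold change divided by the square root of F. The mature green libraries had TMM factors of 0.5525 to 0.6281, the others of 0.8383 to 1.302. A fold against a group at 0 is a bound against 3 counts over the group, apart from SPL13A, where the split with SPL13B is not covered. Such a fold takes the mean of the other group as measured. Alternatives used limma 3.58.1, DESeq2 1.42.0, other filters and size factors, a replicate block, the 2 stages alone and each library left out. The script was tested on simulated data. Software was R 4.3.3, Python 3.11.15, numpy 2.4.6, pandas 2.3.3, scipy 1.17.1 and matplotlib 3.10.9.

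The genes and lists were chosen with earlier results of these data known. All 10 genes and SPL13B are named, list genes may be named, and 1 nearest gene is named for each tested gene. The comparison of SPL5 with AT3G15260 was added after the data were seen. Sites were searched with up to 3 mismatches in RefSeq transcripts. Intervals and floors cover counting error only.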

Additional observations from a re-analysis of the deposited data

How the results depend on the processing

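SPL10 (3 calls), SPL5 (3), SPL13A (2), SPL2 from late heart and from preglobular to mature green and SPL6 from preglobular to mature green kept direction and call in all settings run for them. All these settings start from the same read assignment, so none separates SPL5 from AT3G15260 on the opposite strand. The number of members called over the 8 stages was 7, and 8 with RLE size factors, both limma scales, the replicate block and DESeq2. It was 2 with a filter of 5 CPM in 3 libraries (CPM before TMM scaling), which leaves SPL2 and SPL10 to test; with that filter the counts of higher members were 0 from bent cotyledon to mature green and in all 3 spans. On log2(TPM + 1) and log2(TPM + 0.1) with limma, members higher numbered 0 and 1 from preglobular to globular, 2 and 3 from globular to early heart, 1 and 1 from bent cotyledon to mature green, 2 and 2 from preglobular to late heart and 1 and 1 from late heart to mature green. Members lower numbered 1 and 2, then 2 and 1 from late heart to early torpedo, and 2 and 2, 1 and 1 and 2 and 2 for the same later comparisons. SPL13A and SPL13B summed gave 1 higher at each of the first 2 steps. Fitting the 2 stages alone gave 1 higher from early to late heart and 0 lower from bent cotyledon to mature green, and called SPL13A higher from late heart to mature green (0.84). The count of lower members was also 0 with RLE, no filter and DESeq2, and no filter gave 1 lower from preglobular to late heart. Leaving out 1 library gave 7 to 8 over the 8 stages. By step in order, higher and lower, the ranges were 0 to 1 and 2 to 3, 0 to 1 and 0, 0 and 0, 0 and 0, 0 and 0, 0 and 0 to 1, and 1 to 3 and 0 to 1. By span they were 1 to 2 and 1 to 2, 1 to 3 and 1, and 4 and 2.

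Directions turned only on the TPM scales, where the median of all genes shifted by −0.85 and −1.20 (late heart to mature green) and 0.52 and 0.72 (preglobular to late heart). SPL2 from preglobular to late heart became 0.24 and 0.29. From late heart to mature green SPL6 became −0.17 and −0.30, SPL10 −0.51 and −0.83, SPL13A −0.34 and −0.52, and SPL13B −0.59 and −0.98. The cause was not tested. SPL13B from preglobular to globular (adjusted p = 0.0491) was lost in 19 of 24 fits that left out 1 library. With the replicate number as a block, SPL4 from late heart to mature green (adjusted p = 0.051) and SPL13B from preglobular to globular (0.0574) were lost and SPL11 over the 8 stages was called (0.0275). Replicate numbers are not tied to a shared batch by the labels, and the mean correlation between equally numbered libraries, after the stage means were removed, was −0.0128 (−0.302 to 0.349; 3 of 24 libraries correlated best with their own number). Depth limits SPL3, SPL4, SPL9 and SPL15, with 52 to 192 counts over 24 libraries.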
